A study of Mus musculus with 6 samples.

Results

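BCL2 family genes were followed in partially reprogrammed 4434 cells, a Braf-mutated mouse melanoma line. The members were 10 genes chosen for their role in mitochondrial cell death, with earlier results of these data known. They were found as all probe sets (groups of short array probes summarised into 1 value) that the platform annotation gives to exactly 1 of these symbols. This gave 30 probe sets of 9 genes among 45037 probe sets tested. Bax was not analysed here. Partially reprogrammed cells, + dox, were grown with doxycycline and collected at day 20 (n = 3 arrays), and control cells, − dox, were kept without it and collected at the same day (n = 3 arrays). Cells of both groups carried a lentiviral vector that expresses mouse Oct4, Sox2, Klf4 and a blasticidin resistance gene under doxycycline control, and another that supplies the transactivator together with mCherry. The methods describe blasticidin selection after doxycycline was added, so doxycycline, the 3 factors and selection cannot be told apart in this comparison. The sources do not say whether replicates were grown separately, so the p-values reflect the spread among these samples and that spread may be technical.

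The BCL2 family controls whether the outer mitochondrial membrane is opened during apoptosis. Bax and Bak1 encode the effectors that form the pores. Bcl2, Bcl2l1 (BCL-XL) and Mcl1 encode guards that bind and restrain the effectors and the activating proteins. The BH3-only genes Bmf, Bbc3 (PUMA), Pmaip1 (NOXA), Bcl2l11 (BIM) and Bid encode short-lived or stress-controlled sensors that neutralise the guards or activate the effectors. In melanoma cells with mutated Braf, BIM and BMF are known to be held down by MAPK signalling. The study asked how partial reprogramming alters the response to MAPK inhibitors, and the labels of these arrays name no inhibitor.

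Values are log2 expression values of the deposited table, so a difference of 1 is a 2-fold difference. A probe set was called when limma's p, adjusted over all 45037 probe sets, was under 0.05. On every probe set of Bcl2 and Bak1 the + dox arrays lay above the − dox arrays, with 4 of these 7 probe sets called. No probe set of Bcl2l1 or Bid separated the groups. Of all probe sets, 2.53% were called, and the groups did not overlap in 23.4%. For Bcl2 and Bak1 the RefSeq promoter window, the 250 bases before the start site (build GRCm38.p6), is shown, because these were the 2 members with all probe sets higher in + dox arrays without overlap. Capitals mark GC boxes (GGGCGG on either strand). Motifs of the 3 vector factors and of Mitf were also searched on both strands: the octamer ATGCAAAT, the SOX motif ACAATG, the CACCC box CCACCC, the M-box CATGTG and the E-box CACGTG.
Bcl2, chr1:106714291-106714540, minus strand: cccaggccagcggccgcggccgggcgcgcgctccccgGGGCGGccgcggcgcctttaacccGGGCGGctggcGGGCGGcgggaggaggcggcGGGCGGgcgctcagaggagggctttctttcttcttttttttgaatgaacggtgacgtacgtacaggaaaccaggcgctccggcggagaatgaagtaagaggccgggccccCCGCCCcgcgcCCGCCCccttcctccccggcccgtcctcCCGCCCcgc
Bak1, chr17:27028628-27028877, minus strand: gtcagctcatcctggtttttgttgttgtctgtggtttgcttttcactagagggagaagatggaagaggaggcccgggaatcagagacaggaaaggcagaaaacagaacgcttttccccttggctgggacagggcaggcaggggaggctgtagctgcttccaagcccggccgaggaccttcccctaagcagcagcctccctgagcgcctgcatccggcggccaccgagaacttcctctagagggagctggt
The Bcl2 window held 7 GC boxes and the Bak1 window 0, where 32.7% of 32851 RefSeq windows of this length held at least 1. The G and C content was 74.8% in the Bcl2 window and 58.4% in the Bak1 window, against a median of 52.4% over all windows. Neither window held any of the other 5 letter strings, of which the CACCC box was found in 28.1%, the M-box in 12.3%, the SOX motif in 10.7%, the E-box in 6.02% and the octamer in 1.60% of all windows. GC boxes were also found upstream of Bbc3, whose probe set read lower in + dox arrays without passing the test. Its 3 windows, of which 2 overlap, held 5, 1 and 7, together with matches to the CACCC box, the SOX motif and the E-box. Windows of Mcl1, Bax, Bcl2l11 and Bid held GC boxes too, and those of Bcl2l1 and Bmf held none. CACCC boxes also lay in windows of Bcl2l1, Bmf and Bcl2l11. The SOX motif was also found in windows of Bcl2l1 and Bid, the M-box in a window of Bcl2l1 and the E-box in that of Bax.

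The members were chosen with earlier results of these data known, so the shares below describe them and do not test the family. Of the 30 member probe sets, 6 were called and all 6 were higher in + dox cells, which is 20.0% beside 2.53% of all probe sets. This count rested on single arrays: 7 member probe sets were called with + dox 1 omitted, 4 with − dox 1 omitted and 2 with + dox 2 omitted. With + dox 3, − dox 2 or − dox 3 omitted, 1 was called. Across these omissions, calls over all probe sets ranged from 111 to 2351. By direction, 1.64% of all probe sets were called higher and 0.884% lower. The called probe sets belonged to Bcl2 (3), Mcl1 (1), Bak1 (1) and Bmf (1). The groups did not overlap in 13 member probe sets, 11 of them higher and 2 lower, beside 23.4% of all probe sets (12.0% higher and 11.4% lower). The median change was 0.16 over the members and 0 over all probe sets. Since RNA was taken from whole cultures, a change in the share of cells that express a gene and a change in RNA per cell cannot be told apart. An unadjusted p under 0.05 was reached by 13 member probe sets, 11 higher and 2 lower, beside 18.5% of all probe sets (9.12% higher and 9.35% lower).

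Arrays differed within groups. On the first principal component of all probe sets + dox 1 stood at 15.7, nearer to the − dox arrays than + dox 2 (58.6) and + dox 3 (72.7), with − dox arrays at −59.1, −37.5 and −50.4. Array + dox 1 was the + dox array nearest to the − dox mean in 13 of 30 member probe sets, beside 40.3% of all probe sets. Array − dox 1 was the highest of the 6 arrays in 10 member probe sets, beside 21.6% of all probe sets, and the lowest in 8, beside 23.9%. Array − dox 2 was the lowest in 8 member probe sets, beside 10.3% of all probe sets. Melanocyte markers were partly dim: the brightest probe set of Mitf (6.17 to 6.83 across + dox arrays, 6.67 to 8.15 across − dox arrays) and that of Sox10 (6.26 to 6.46 across + dox arrays, 6.12 to 6.35 across − dox arrays) lay above the median of all probe sets. The brightest probe sets of the pigment genes Tyr, Mlana, Dct and Tyrp1 lay at percentiles 16.6 to 34.4 of mean level, and that of Pmel at percentile 49.8 (5.25 to 5.42 across + dox arrays, 5.30 to 5.43 across − dox arrays). Among lists of other cell types, keratinocyte markers had 2 of 11 probe sets called, both of Krt14 and higher in + dox cells (3.67 and 2.46). The summed level of that list, on the log2 scale, was 9.09 to 9.79 over + dox arrays against 8.06 to 8.23 over − dox arrays. Such a sum adds unlogged values, so the brightest probe sets weigh most. The median change of the keratinocyte list was 0.07 (9 positive and 2 negative changes). Fibroblast markers summed to 9.38 to 10.05 over + dox arrays against 10.08 to 10.9 over − dox arrays. The fibroblast list nonetheless had 7 positive and 4 negative changes, with a median of 0.04. Endothelial markers summed to 10.18 to 10.69 over + dox arrays against 9.47 to 10.04 over − dox arrays (6 positive and 1 negative change, median 0.30). Of either list 0 probe sets were called (2 of 11 and 1 of 7 with an unadjusted p under 0.05). Melanocyte markers (8.60 to 8.78 over + dox arrays, 8.70 to 9.18 over − dox arrays) and immune cell markers (8.37 to 8.71 over + dox arrays, 8.03 to 8.53 over − dox arrays) overlapped between groups, with 0 calls and 0 at an unadjusted p under 0.05. The part of these markers in the results below was not tested.

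Bcl2, the founding anti-apoptotic gene of the family, had the 3 largest changes among the members. On probe set 1457687_at the + dox arrays read 8.27, 9.20 and 8.64, against 6.12, 6.42 and 6.34 in the − dox arrays. Each + dox array lay far above the highest − dox array. The change was 2.41 (SE 0.24, 5.31-fold, limma adjusted p = 0.00948). Probe set 1437122_at gave 6.50, 7.19 and 7.19 in + dox and 4.58, 4.94 and 4.92 in − dox arrays, a change of 2.15 (SE 0.22, 4.43-fold, adjusted p = 0.0108). Again + dox 1 was the lowest of its group and still stood clear of the − dox arrays. Probe set 1422938_at gave 7.19, 7.47 and 7.38 in + dox and 5.96, 6.09 and 6.03 in − dox arrays, a change of 1.32 (SE 0.11, 2.50-fold, adjusted p = 0.00463), with the smallest SE of the 5 Bcl2 probe sets.

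The other Bcl2 probe sets pointed the same way without passing the test. Probe set 1440770_at read 3.56, 3.99 and 4.76 in + dox and 2.85, 2.98 and 3.14 in − dox arrays (change 1.11, 95% interval 0.41 to 1.81, adjusted p = 0.109). Its − dox values lay under the lower quartile of each array (3.84 to 3.90). Probe set 1443837_x_at, whose suffix marks probes that also match other sequences, read 4.43, 4.22 and 4.93 in + dox and 3.62, 3.97 and 3.86 in − dox arrays (change 0.71, interval 0.23 to 1.19, adjusted p = 0.126). The 5 changes thus ran from 0.71 to 2.41 with the same sign. The call of 1422938_at held whichever array was left out (highest adjusted p = 0.0422, without − dox 3). That of 1457687_at was lost without + dox 3, − dox 2 or − dox 3 (adjusted p = 0.0536, 0.0552 and 0.0634), and that of 1437122_at without + dox 2, + dox 3, − dox 2 or − dox 3 (0.0543, 0.0549, 0.0585 and 0.0634). Without + dox 1, 1440770_at was called (1.38, adjusted p = 0.0392).

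The Bcl2 probe sets were known to differ when the genes were chosen, so the differences between them are given as a description, without a test. Subtracting 1457687_at from 1422938_at within each array gave −1.08, −1.73 and −1.26 in + dox arrays against −0.16, −0.33 and −0.31 in − dox arrays. Subtracting 1443837_x_at from 1437122_at gave 2.07, 2.97 and 2.26 in + dox arrays against 0.96, 0.97 and 1.06 in − dox arrays. The − dox values of 1443837_x_at lay at or near the lower quartile of their arrays (3.84 to 3.90), so the size of that difference is approximate. Where on the Bcl2 transcript each probe set lies was not analysed here.

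**Figure D1:**
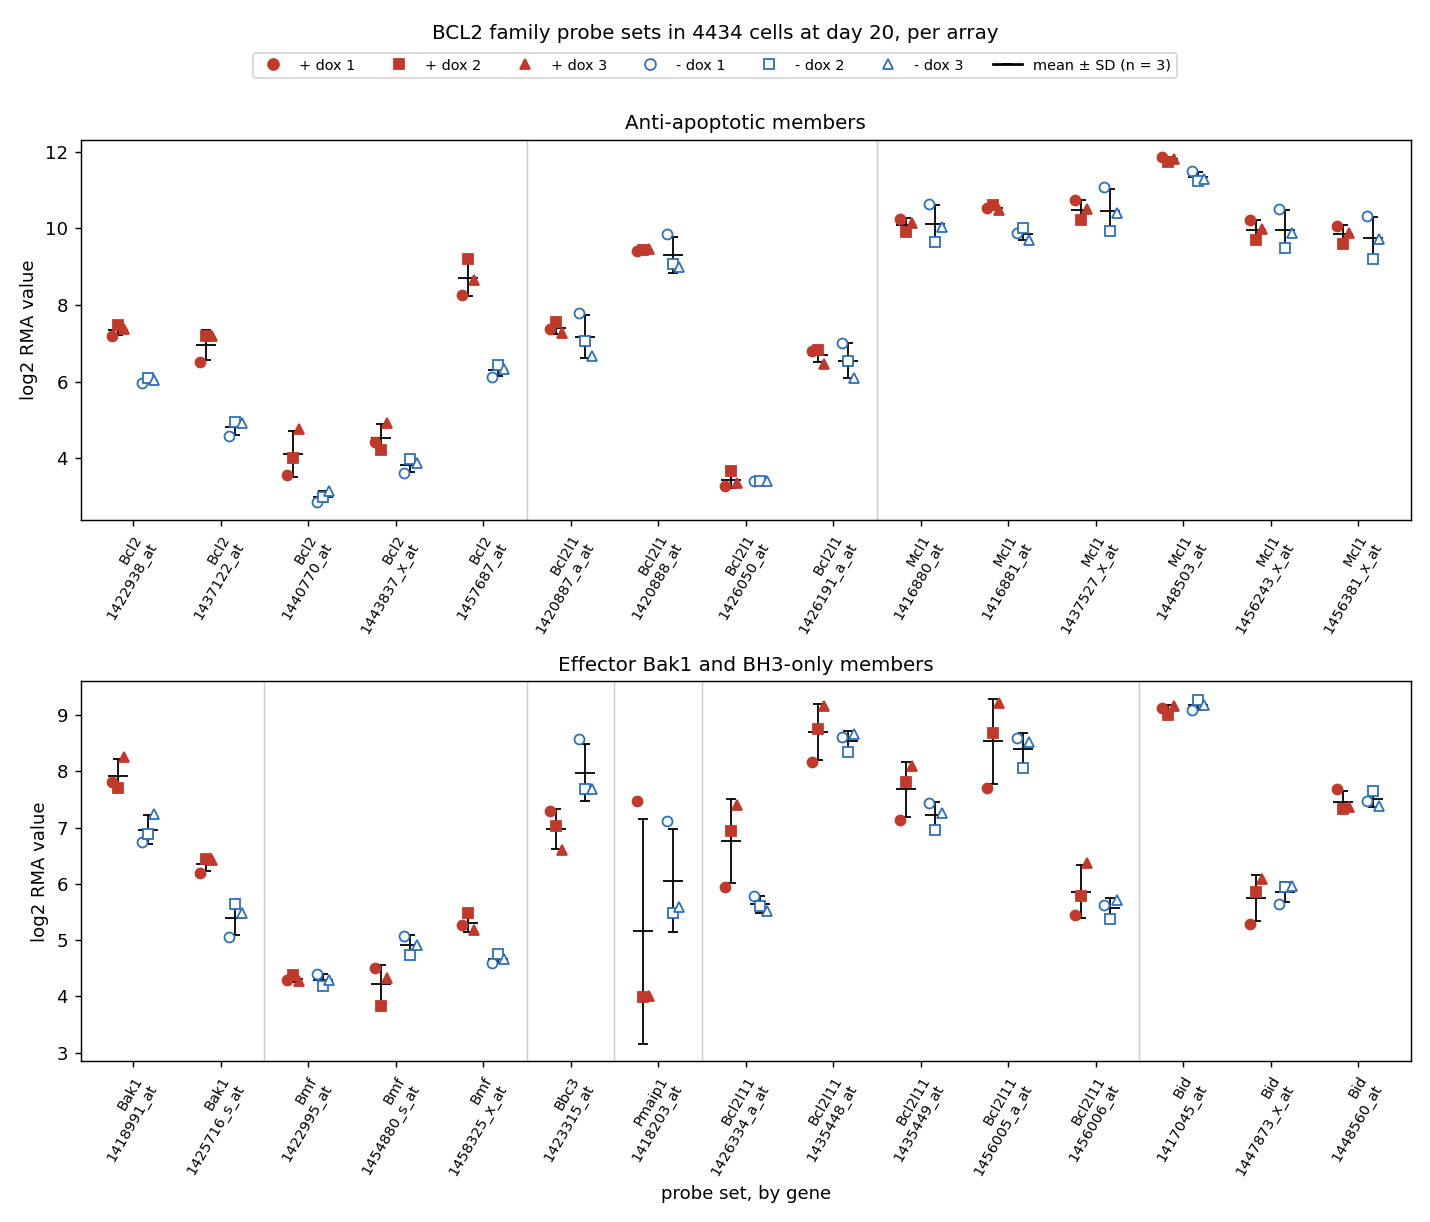
Log2 RMA value (vertical axis) of all 30 BCL2 family probe sets grouped by gene on the horizontal axis. Red marks stand for + dox arrays and blue open marks for − dox arrays (n = 3 each), and black bars for mean ± SD; the 5 Bcl2 and both Bak1 probe sets separate the groups, and Pmaip1 is high in arrays + dox 1 (7.47) and − dox 1 (7.11).

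Bcl2l1 encodes BCL-XL, a second broad anti-apoptotic guard, and none of its 4 probe sets was called (0 with an unadjusted p under 0.05). On 1420888_at the + dox arrays read 9.41, 9.44 and 9.45, against 9.85, 9.06 and 9.00 in the − dox arrays. The + dox arrays were nearly level, and the − dox arrays lay on both sides of them, with − dox 1 the highest of all. The change was 0.13 (95% interval −0.42 to 0.68, adjusted p = 0.832), so a rise of 2-fold lay outside the interval. The changes of the 4 probe sets ran from 0.02 to 0.22, with intervals within −0.44 to 0.88. Without − dox 1 the value on 1420888_at was 0.40 (adjusted p = 0.0893), and without − dox 3 it was −0.02.

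Mcl1 encodes a guard with a very short protein half-life, and 1 of its 6 probe sets was called. On 1416881_at, the called one, the + dox arrays read 10.52, 10.62 and 10.48 and the − dox arrays 9.87, 10.00 and 9.69, a change of 0.69 (SE 0.11, 1.61-fold, adjusted p = 0.0363). On 1448503_at they read 11.86, 11.74 and 11.80 in + dox and 11.49, 11.24 and 11.30 in − dox arrays, a change of 0.46 (interval 0.21 to 0.70, adjusted p = 0.0791). The groups did not overlap on either. The other 4 probe sets had changes of −0.01 to 0.10 (adjusted p = 0.907 to 0.992) with overlapping groups, and on each of them − dox 1 was the highest and − dox 2 the lowest array. For example, 1437527_x_at read 10.73, 10.22 and 10.50 in + dox and 11.07, 9.92 and 10.40 in − dox arrays. Of 15 pairs of Mcl1 probe sets, 0 differed past limma's adjusted threshold and 1 had an unadjusted p under 0.05, so unequal changes were not shown. The call of 1416881_at survived the omission of + dox 1 (0.0482) and was lost when any other array was left out, with an adjusted p of 0.147 (+ dox 2 omitted), 0.128 (+ dox 3 omitted), 0.0513 (− dox 1 omitted), 0.0814 (− dox 2 omitted) and 0.135 (− dox 3 omitted).

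Bak1, the pore-forming effector measured here, gave nearly the same change on both of its probe sets, of which 1 was called higher in + dox cells. On 1425716_s_at the + dox arrays read 6.20, 6.44 and 6.43, against 5.05, 5.64 and 5.48 in the − dox arrays, a change of 0.97 (SE 0.17, 1.95-fold, adjusted p = 0.0444). On 1418991_at they read 7.81, 7.71 and 8.26 in + dox and 6.75, 6.89 and 7.25 in − dox arrays, a change of 0.96 (interval 0.50 to 1.43, adjusted p = 0.0613). Groups were separate on both probe sets, and the second missed the threshold. With 1 probe set per gene, that with the highest mean, 1418991_at represented Bak1 and passed (adjusted p = 0.0455 over 18193 genes). The call of 1425716_s_at was lost without + dox 2, + dox 3, − dox 2 or − dox 3 (adjusted p = 0.168, 0.173, 0.0834 and 0.147).

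**Figure D2:**
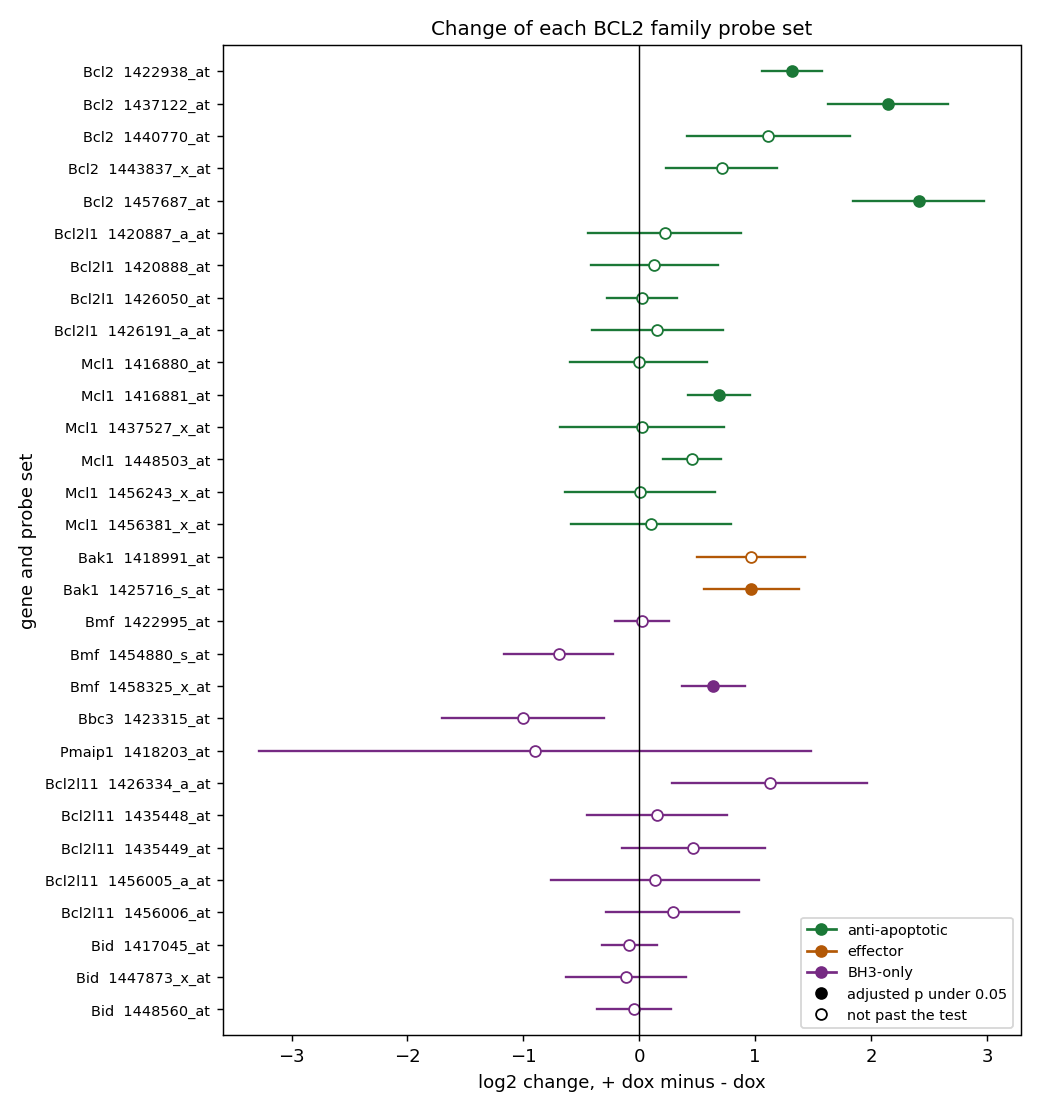
Log2 change, + dox minus − dox (horizontal axis), with its 95% confidence interval for each BCL2 family probe set (vertical axis), coloured by role. Filled points passed the test; the 6 filled points run from 0.64 (Bmf) to 2.41 (Bcl2), and Bbc3 (−1.00) and Bmf 1454880_s_at (−0.70) are the 2 probe sets whose interval lies below 0.

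Among the BH3-only genes 1 of 13 probe sets was called (7.69%, beside 2.53% of all probe sets), and their median change was 0.02. Bmf, a sensor tied to the actin and myosin cytoskeleton, gave 3 probe sets with 3 different outcomes. On 1458325_x_at the + dox arrays read 5.26, 5.48 and 5.18, against 4.59, 4.76 and 4.66 in the − dox arrays, a change of 0.64 (SE 0.11, 1.55-fold, adjusted p = 0.0453). On 1454880_s_at they read 4.50, 3.82 and 4.32 in + dox and 5.08, 4.73 and 4.92 in − dox arrays, a change of −0.70 (interval −1.16 to −0.23, adjusted p = 0.125). The groups did not overlap on either, in opposite directions. On 1422995_at they read 4.29, 4.37 and 4.27 in + dox and 4.39, 4.18 and 4.29 in − dox arrays, a change of 0.02 (interval −0.21 to 0.26).

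The Bmf probe sets were also known to differ beforehand, and their difference is a description without a test. Subtracting 1458325_x_at from 1454880_s_at within each array gave −0.76, −1.66 and −0.86 in + dox arrays against 0.49, −0.03 and 0.26 in − dox arrays, without overlap. The suffix of the probe set that rose marks probes matching other sequences, and the suffix of the one with the negative change marks probes shared by several transcripts. The call of 1458325_x_at was lost whichever array was left out, with an adjusted p between 0.0563 (+ dox 1 omitted) and 0.172 (− dox 3 omitted). No direction for Bmf as a gene can be given from these probe sets.

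Bcl2l11 encodes BIM, a sensor that activates the effectors and whose RNA is spliced into several forms. On 1426334_a_at the + dox arrays read 5.94, 6.94 and 7.40, against 5.79, 5.60 and 5.51 in the − dox arrays. The − dox arrays lay close together, and + dox 1 was only just above them. The change was 1.13 (interval 0.29 to 1.97, adjusted p = 0.157), and without + dox 1 it was 1.54 and was called (adjusted p = 0.0118). The other 4 probe sets had changes of 0.14 to 0.47 (adjusted p = 0.411 to 0.902) with overlapping groups, and + dox 3 was the highest and + dox 1 the lowest + dox array on all 5. Differences between 2 probe sets of a gene were fitted over 30372 pairs, of which 1.24% were called. The change of 1426334_a_at exceeded that of 1456005_a_at by 0.99 (SE 0.16, adjusted p = 0.0427), 1 of 10 Bcl2l11 pairs called, with within-array differences of −1.77, −1.74 and −1.81 in + dox and −2.81, −2.47 and −3.01 in − dox arrays. That call was lost whichever array was left out (adjusted p between 0.0544, with − dox 2 omitted, and 0.181, with + dox 3 omitted).

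Bbc3 encodes PUMA, a sensor induced by p53. Its probe set, 1423315_at, read 7.30, 7.03 and 6.60 in + dox and 8.57, 7.68 and 7.69 in − dox arrays. All + dox arrays lay below the − dox arrays, and − dox 1 stood well above the others. The change of −1.00 (SE 0.29, interval −1.70 to −0.31, adjusted p = 0.135) missed the threshold, and without − dox 1 it was −0.71 (adjusted p = 0.133).

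Pmaip1 encodes NOXA, a sensor that binds MCL1. Its probe set, 1418203_at, read 7.47, 3.99 and 4.01 in + dox and 7.11, 5.48 and 5.58 in − dox arrays. In each group array 1 was high and the other two were level with each other. The change of −0.90 had an interval of −3.28 to 1.48 (adjusted p = 0.711), the widest among the members. Without + dox 1 it was −2.06 (adjusted p = 0.0912), and without both arrays numbered 1 it was −1.53 and was called (adjusted p = 0.00164). The same setting also called Bbc3 lower (−0.87, adjusted p = 0.0288), with 2 arrays per group left. It called 5142 of all 45037 probe sets, beside 1138 in the main fit. The arrays left out were those with the high Pmaip1 values, so the Pmaip1 call there is a description and not a test. Over all probe sets the deviations of the arrays numbered 1 from their group means correlated at −0.05, with the 45037 probe sets as points.

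Bid links death receptors to mitochondria through caspase-8, which cuts its protein. None of its 3 probe sets was called (0 with an unadjusted p under 0.05). On 1417045_at the + dox arrays read 9.13, 9.00 and 9.16, against 9.09, 9.28 and 9.18 in the − dox arrays. The groups overlapped, with a change of −0.09 (interval −0.32 to 0.15, adjusted p = 0.722). The other Bid probe sets had −0.05 and −0.11, with intervals within −0.63 to 0.40.

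**Figure D3:**
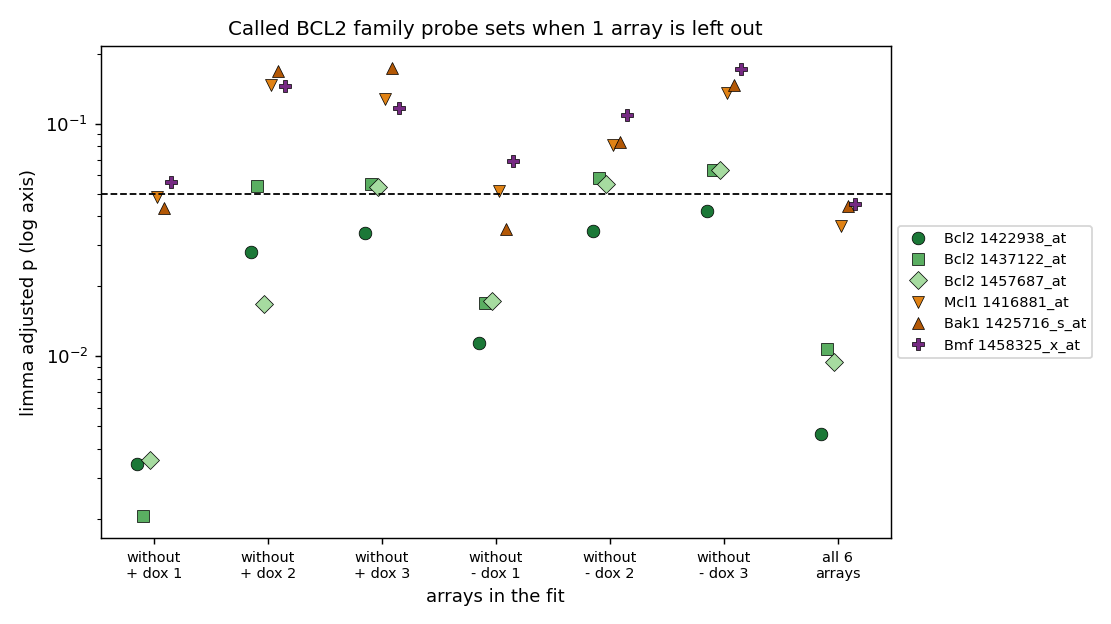
Limma adjusted p (vertical axis, log scale) of the 6 called BCL2 family probe sets with all 6 arrays and with each array left out in turn (horizontal axis). The dashed line is the threshold of 0.05; Bcl2 1422938_at stays under it throughout, and Bmf 1458325_x_at lies under it only with all 6 arrays.

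The other genes of the mitochondrial apoptosis pathway gave 5 called probe sets of 234 (83 of 95 listed genes), all higher in + dox cells, which is 2.14% beside 2.53% of all probe sets. Their median change was −0.01. Further family members gave 0 calls over 7 probe sets of other anti-apoptotic genes, 6 of other effector-like genes and 13 of other BH3-only genes. Bcl2l12 1428865_at had −0.51 (adjusted p = 0.156), and the other Bcl2l12 probe set had 0.16 with overlapping groups. Bcl2l2 1430454_x_at had 0.25 (adjusted p = 0.221), with the other Bcl2l2 probe sets at 0.36, −0.24 and −0.11. Among the other BH3-only genes, Bnip3 had 0.76 (adjusted p = 0.117) and Bad 1416583_at 0.48 (adjusted p = 0.199). Of these 26 probe sets 8 had an unadjusted p under 0.05, beside 18.5% of all probe sets. Bcl2l15, a little-studied family member, read 4.41, 5.64 and 5.85 in + dox and 3.42, 3.49 and 3.42 in − dox arrays (1.86, adjusted p = 0.0559), and was called without + dox 1 (2.30, adjusted p = 0.00109). Its relative Bcl2l13 differed by 0.08 (adjusted p = 0.731).

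In the list of inhibitor of apoptosis proteins, which also held Cflar, 4 of 25 probe sets were called higher and 0 lower (median change 0.08). Of all probe sets 1.64% were called higher and 0.884% lower. Cflar, which encodes the caspase-8 inhibitor c-FLIP, rose on 3 of its 5 probe sets. On 1449317_at it read 8.28, 8.71 and 8.96 in + dox and 5.81, 6.63 and 6.61 in − dox arrays, a change of 2.30 (SE 0.27, 4.92-fold, adjusted p = 0.0169). On 1425686_at the change was 1.71 (adjusted p = 0.0333) and on 1424996_at 1.59 (adjusted p = 0.0216), while 1425687_at had 1.36 without overlap between groups (adjusted p = 0.0633) and 1453482_at −0.01 with overlapping groups. Birc7, which encodes livin, an inhibitor of apoptosis protein of melanoma, read 8.16, 6.86 and 7.33 in + dox and 5.54, 5.75 and 5.59 in − dox arrays (1.82, SE 0.31, adjusted p = 0.0408). These 4 calls were lost without + dox 2, + dox 3, − dox 2 or − dox 3, and those of Birc7 and Cflar 1425686_at also without − dox 1 (adjusted p up to 0.158 for Birc7 and 0.139 for Cflar).

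Among 28 probe sets of the apoptosome, caspases and released mitochondrial factors 0 were called and 5 had an unadjusted p under 0.05 (3 higher and 2 lower). Of all probe sets 18.5% had such a p (9.12% higher and 9.35% lower), which is the share to set beside each list here. Casp8 had 0.86 (adjusted p = 0.110) and probe set 1422484_at of Cycs, the cytochrome c gene, 0.56 (adjusted p = 0.120). The other Cycs probe sets had 0.28, 0.20 and 0.17 with overlapping groups. Mitochondrial membrane partners gave 0 calls of 43, with the outer membrane protein gene Tspo at 0.74 and 0.78 on 2 probe sets (adjusted p = 0.0613 and 0.0962). Of this list 7 probe sets had an unadjusted p under 0.05, 3 higher, all of Tspo, and 4 lower, of Opa1 and Dnm1l. Of 58 probe sets of binding partners and turnover factors, 1 was called, which is 1.72% beside 2.53% of all probe sets. An unadjusted p under 0.05 was reached by 14 of them, 3 higher and 11 lower, and the list median was −0.07. The called probe set, of Tmbim1 from the BAX inhibitor motif family, read 11.21, 11.72 and 11.82 in + dox and 10.24, 9.84 and 9.77 in − dox arrays (1.63, SE 0.20, adjusted p = 0.0194). Its call survived only the omission of an array numbered 1, and the highest adjusted p was 0.0968 (− dox 3 omitted). Bag1, the gene of a BCL2-binding co-chaperone, had 0.42 (adjusted p = 0.0934). Transcriptional regulators of BH3-only genes gave 0 calls of 54, with 9 at an unadjusted p under 0.05, of which 8 were lower; Hif1a had −0.63 (adjusted p = 0.0934) and Mdm2, a p53 target and inhibitor, 0.42 (adjusted p = 0.108).

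**Figure D4:**
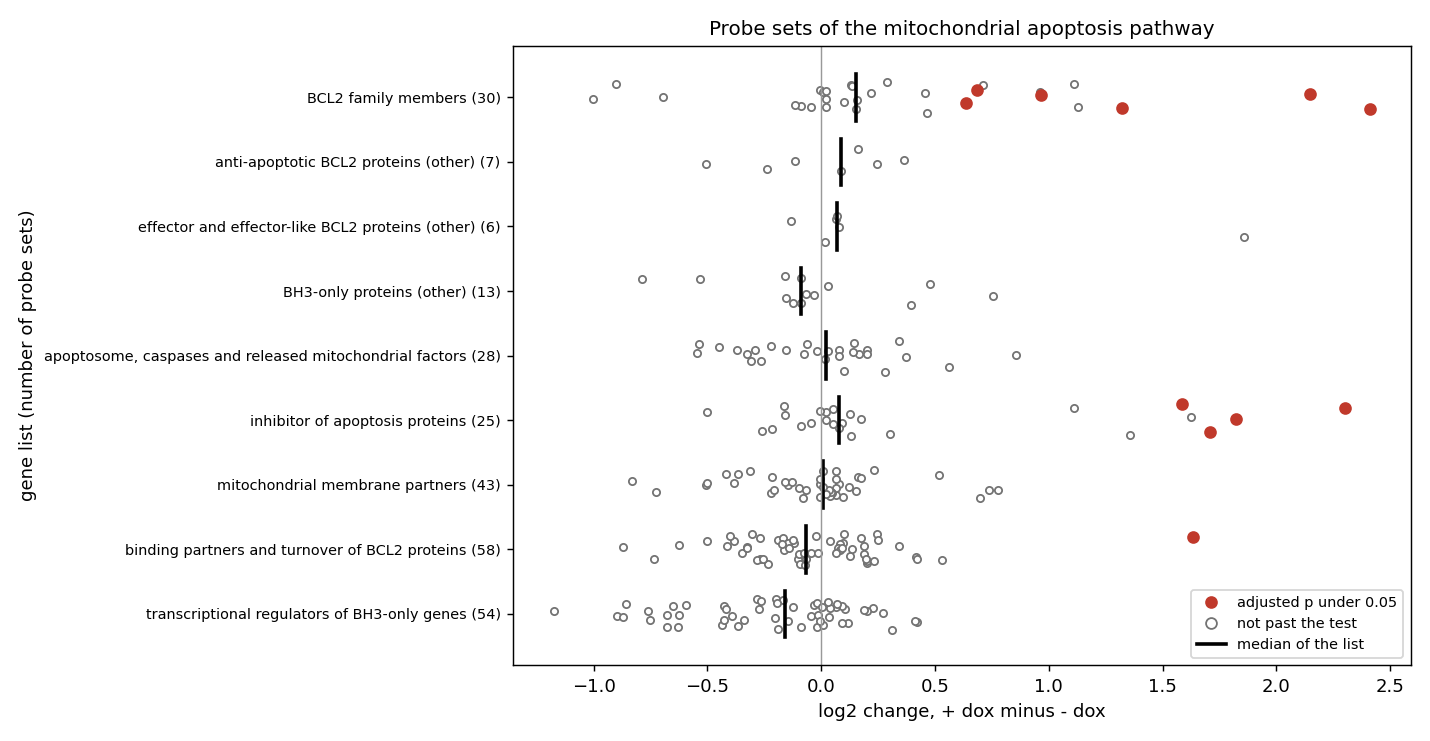
Log2 change, + dox minus − dox (horizontal axis), of each probe set of the BCL2 family members and of 8 lists of related genes (vertical axis, number of probe sets in parentheses). Red points passed the test, open points did not, and black bars are list medians; the red points of the lists belong to Cflar, Birc7 and Tmbim1, at 1.59 to 2.30.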

How the data were processed

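Total RNA of 6 samples, 3 + dox and 3 − dox, was hybridised to Affymetrix mouse arrays. The deposited values are log2 expression values, which the authors made from the scanner files with RMA in Chipster (software version and chip definition: not given in the sources used here). Their scale was read from the values (2.08 to 14.44, column medians 5.33 to 5.37); the columns are levels of single arrays, with no centring and no direction of their own. RMA had already equalised the arrays, and their number limits the precision. Of 45101 probe sets 64 controls were left out. Names came from the platform annotation of 2016 (34945 probe sets with 1 symbol, 932 with several, 9160 not listed; 0 symbols changed when looked up by Entrez gene ID).

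Samples were grouped by title. All probe sets were fitted with limma 3.58.1 in R 4.3.3 (group only, two-sided, Benjamini-Hochberg), with changes as + dox minus − dox. Members and lists were chosen with earlier results of these data known. Values per array are given for members with an unadjusted p under 0.05, all probe sets of Bmf and Bcl2, and the brightest probe set of the other genes; in lists, for up to 4 called probe sets, and if fewer than 2 were called, changes of 2 probe sets by smallest p are named. Mcl1 1437527_x_at, the other probe sets of Bcl2l12, Bcl2l2 and Cycs, Cflar 1425687_at and Cflar 1453482_at were added after their values were seen. The fit was tested on simulated data. Promoter windows came from RefSeq (GRCm38.p6; 9 of 10 members). As alternatives, the following were tried: a block for replicate number, 1 probe set per gene, filters on dim probe sets (20% and 40%), trend and robust settings, quantile normalisation, median centring, each array or both arrays numbered 1 left out, thresholds of 0.01 and 0.10, and limma's treat against 1.5-fold.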

Additional observations from a re-analysis of the deposited data

How the results depend on the processing

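The same 6 member probe sets were called under filters, trend and robust settings, quantile normalisation and median centring. Because RMA had already equalised the arrays, quantile normalisation and median centring could change little. Leaving out 1 array gave 1 to 7 member probe sets called higher (main 6) and 0 lower. Calls over all probe sets ranged from 111 to 2351 (main 1138), and those in the pathway from 0 to 12 (main 5). Called pairs of member probe sets ranged from 0 to 4 (main 3, of which 2 were Bcl2 pairs known to differ beforehand). Without both arrays numbered 1 there were 10 higher and 2 lower member probe sets, 34 pathway calls and 5142 calls in all. With 1 probe set per gene, 3 of 9 members (Bak1, Bcl2 and Bmf) and 886 of 18193 genes were called. Treat called 2 member probe sets (Bcl2). At an adjusted p under 0.01, 2 member probe sets (Bcl2) and 0 pairs were called. For treat and for 0.01, calls over all probe sets were not counted. Under 0.10, 9 pairs of Bcl2, Bcl2l11 and Bmf were called, and the Bcl2 and Bmf probe sets were known to differ beforehand. The replicate numbers gave correlations of deviations of −0.05, −0.04 and 0.21, so they were not taken as pairs. With the replicate block 4 member probe sets, 1 pathway probe set, 0 pairs and 466 probe sets in all were called. Values near 0 changed sign when 1 array was left out: the change of Bmf 1422995_at ranged from −0.03 to 0.075 (−0.01 without + dox 2, −0.03 without − dox 2), and that of Bcl2l1 1420888_at ranged from −0.022 (without − dox 3) to 0.40. The cause of these shifts was not tested. With 3 arrays per group, only changes well above the spread between arrays can pass, and dim probe sets, such as Bcl2 1440770_at in − dox arrays, give approximate sizes.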
